A study of Mus musculus with 58 samples.

Results

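The regions described here are 2141 autosomal windows of 5 kb that carried much H3K27ac in full-grown mouse oocytes both without and with Setd2. Windows were tiled from the start of chromosomes 1 to 19, and the members were selected on their measured H3K27ac, at 1.137 RPKM or more in the knockout and in the control track. Windows with a bin of 100 bp at 10 RPKM or more in either track were left out. The members are 0.433% of 494470 autosomal windows and cover 10.7 Mb. Because both tracks chose them, their levels and their knockout over control ratios are a description.

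The series holds 58 samples in 34 groups, histone marks of mouse oocytes, embryos, sperm and embryonic stem cells. They were read by STAR ChIP-seq, which sequences the DNA that an antibody pulls down from small numbers of cells. The 4 samples used here are full-grown oocytes (FGO) with an H3K27ac antibody. Knockout oocytes were labelled Setd2-/- and came from a maternal knockout of the gene, and control oocytes were labelled Setd2+/-, so the controls carry 1 mutant allele as well. The labels give females of 8 weeks injected with PMSG and hCG, hormones that bring on ovulation, and also name the germinal vesicle stage. They give neither the strain nor the Cre line that deletes the gene. Each genotype had 2 replicates that share 1 deposited track, so replicate error could not be estimated and nothing was tested. The Setd2 locus and marker genes of oocytes or of other ovarian cells were not analysed here, because no annotation of the mm9 build was used. Windows are therefore given by position in mm9 and no gene is named.

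H3K27ac is acetylation of lysine 27 on histone H3. It is placed chiefly by the acetyltransferases p300 and CBP, marks active promoters and enhancers, and on a given histone tail excludes H3K27me3, the Polycomb mark. SETD2 is the methyltransferase that places H3K36me3 along the bodies of transcribed genes, and in the mouse oocyte H3K36me3 accompanies DNA methylation of those bodies. Oocyte chromatin is known for histone marks that spread over broad domains outside promoters, so a level averaged over 5 kb can reflect a sharp peak or a piece of a broad domain.

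The knockout track held 29367645 reads and the control track 30694806 reads, recovered from the step between RPKM values. Per autosomal window the mean was 0.387 RPKM in knockout and 0.374 RPKM in control. Of 492173 autosomal windows without a bin at 10 RPKM, 29131 (5.92%) reached the threshold in knockout and 8234 (1.67%) reached it in control. The members were 7.35% of those rich in knockout and 26.0% of those rich in control. The other rich windows, used for comparison below, numbered 26990 rich in knockout only and 6093 rich in control only.

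Inside the members H3K27ac averaged 1.42 ± 0.229 RPKM in knockout and 1.25 ± 0.102 RPKM in control (SD over 2141 windows, which are not replicates). The lowest, median and highest values were 1.137, 1.36 and 2.55 RPKM in knockout. In control they were 1.14, 1.23 and 2.496 RPKM. Most members therefore sat close above the threshold in control, with an upper quartile of 1.30 RPKM, whereas the knockout values spread further, with an upper quartile of 1.55 RPKM. Each member rested on 167 to 374 reads in knockout and 175 to 383 reads in control. Together they held 1.59% of autosomal knockout reads (95% Wilson interval 1.58 to 1.59) and 1.45% of autosomal control reads (1.44 to 1.45), intervals that cover counting error only.

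The log2 ratio of knockout over control, computed on RPKM + 0.1, had a median of 0.13 and quartiles of -0.01 and 0.30. It was above 0 in 1568 members (73.2%) and below 0 in 573, and above 0 in 64.5% with both tracks scaled to the same autosomal mean or 99.2% with the same autosomal median, a scaling that raises the knockout track by 0.35 (log2). It stayed within 0.5 of 0 in 1960 members (91.5%). Only 2 members were at least 2-fold higher in knockout and 0 at least 2-fold lower, whereas among 203737 autosomal windows at or above the autosomal mean 12.1% were 2-fold higher and 13.4% 2-fold lower, with a median log2 ratio of 0.07. A threshold in both tracks keeps large differences out, so nothing is read from this gap.

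**Figure D1:**
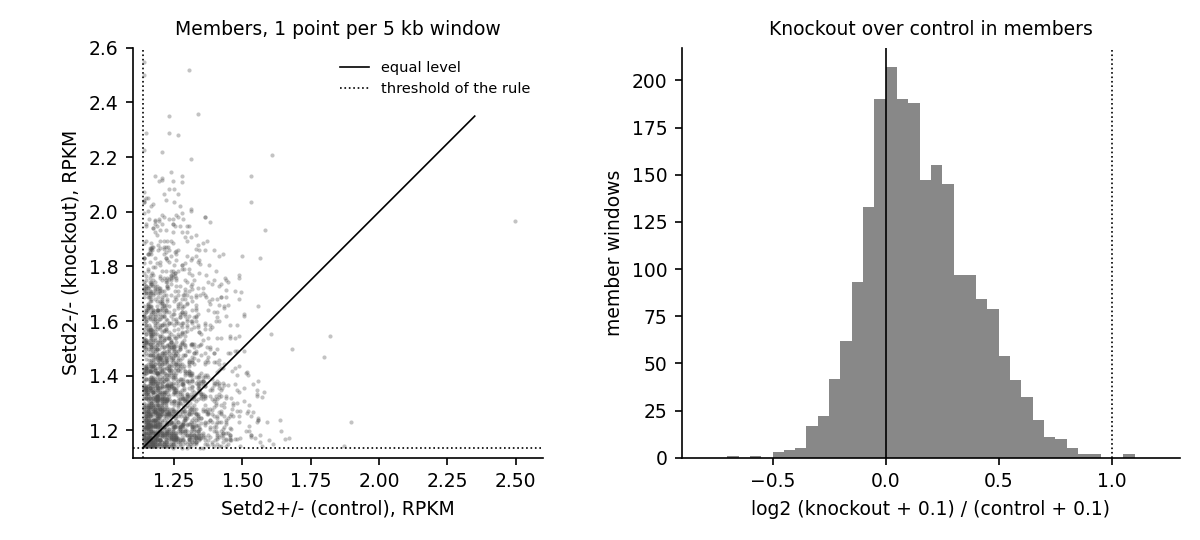
Left, H3K27ac of each member in knockout (vertical) against control (horizontal), in RPKM, 1 point per window, with equal levels as a solid line and the threshold of 1.137 RPKM dotted. Right, number of members by log2 ratio of knockout over control, with 0 as a solid and 2-fold higher as a dotted line; 2 members lie past 2-fold and the highest in control, at 2.496 RPKM, stands alone at the right.

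The richest member, ranked by its level in the poorer of both tracks, was chr1:90155001-90160000. It had 289 knockout reads and 383 control reads, or 1.97 RPKM in knockout and 2.496 RPKM in control. Its knockout signal was 0.789 times that of control (95% exact binomial interval from counts 0.675 to 0.921). Such intervals take reads as independent and leave out replicate error, so they are too narrow, by an amount that could not be measured. Reads per bin also varied more than counting error gives, but that variation includes differences in level along a window. It was the member with the most H3K27ac in control, and it was among the minority that was lower in knockout, with a log2 ratio of -0.33 that was 0.010 with both tracks scaled to the same autosomal median. It formed a run of 3 members, chr1:90150001-90165000. From left to right these had 1.23, 1.97 and 1.77 RPKM in knockout, and 1.90, 2.496 and 1.32 RPKM in control, so the maximum was in the middle window in both genotypes but the right window was higher in knockout and the left one in control. Right of the run, chr1:90165001-90170000 was rich in knockout only, with 1.35 RPKM in knockout and 0.789 RPKM in control. The window after it, chr1:90170001-90175000, held 3.10 RPKM in knockout and 3.02 RPKM in control and was no member, because it had a bin at 10 RPKM or more.

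**Figure D2:**
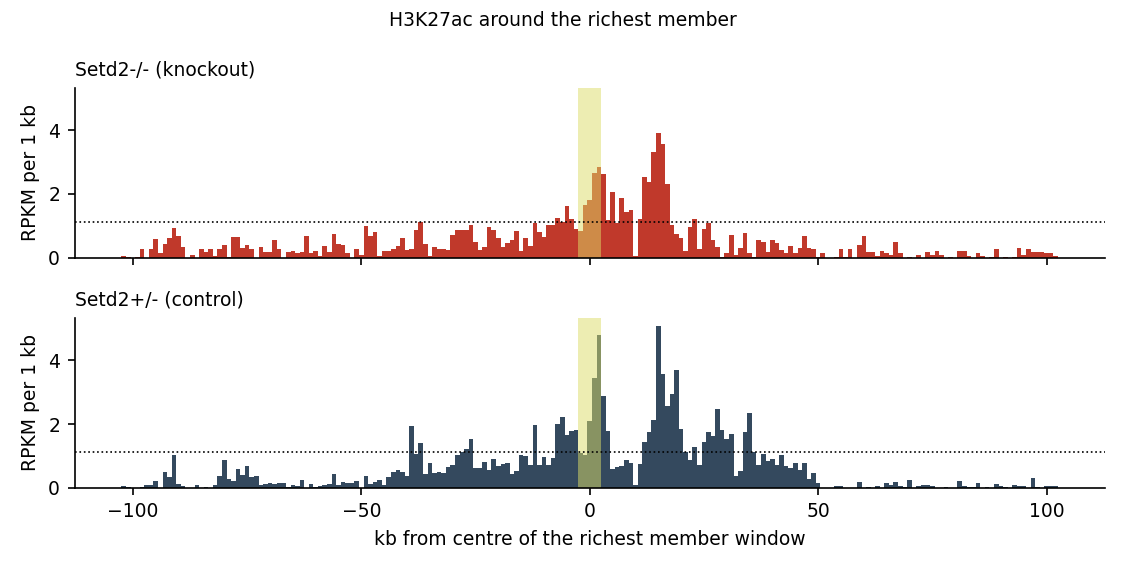
H3K27ac in RPKM per 1 kb within 100 kb of the richest member (shaded), knockout above and control below, with the threshold of 1.137 RPKM dotted. Both tracks peak in the shaded window and again about 15 kb to its right, where single 1 kb pieces reached 3.91 RPKM in knockout and 5.08 RPKM in control.

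Next in rank came chr10:117035001-117040000, with 2.21 RPKM in knockout and 1.61 RPKM in control. Its knockout signal was 1.37 times that of control (1.16 to 1.62). Then came chr7:108275001-108280000, with 1.93 RPKM in knockout and 1.58 RPKM in control, a ratio of 1.22 (1.03 to 1.46). Their log2 ratios, 0.43 and 0.27, were 0.39 and 0.23 with both tracks scaled to the same autosomal mean. The other 3 of the top 6 were chr9:29180001-29185000 with 1.83 RPKM in knockout and 1.56 RPKM in control, chr1:3625001-3630000 with 1.65 RPKM in knockout and 1.56 RPKM in control, and chr10:123220001-123225000 with 1.55 RPKM in knockout and 1.60 RPKM in control. The counting intervals of their ratios, 0.981 to 1.40, 0.885 to 1.28 and 0.806 to 1.16, include 1.

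The members with the highest ratios were chr10:111410001-111415000, with 374 knockout reads and 175 control reads, and chr6:89515001-89520000, with 367 knockout reads and 175 control reads. Their knockout signal was 2.23 times (1.86 to 2.69) and 2.19 times (1.83 to 2.64) that of control, and both just reached the threshold in control, at 1.14 RPKM. These are the 2 members past 2-fold. Neither passed it with a pseudocount of 0.5, at log2 ratios of 0.89 and 0.87, or with at most 10 reads counted per bin, at 0.81 and 0.86. Next was chr10:19620001-19625000, which had 2.29 RPKM in knockout and 1.15 RPKM in control, with a log2 ratio of 0.94, which was 1.28 with the same autosomal median. At the other end, chr6:8245001-8250000 had 168 knockout reads and 287 control reads, a ratio of 0.612 (0.503 to 0.743). It was followed by the left window of the run on chromosome 1 at 0.650 (0.537 to 0.785) and by chr4:82210001-82215000 at 0.702 (0.576 to 0.855). Intervals of windows picked as extremes do not allow for that choice.

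Some of the richest members had the same level in both genotypes. Among the 100 members highest in their poorer track, chr9:87260001-87265000 had 1.39 RPKM in knockout and in control, from 204 knockout reads and 213 control reads. A 2nd, chr8:131215001-131220000, had 1.43 RPKM in each, and chr3:58785001-58790000 had 1.42 RPKM in knockout and 1.41 RPKM in control. Counting error alone leaves their ratios anywhere between 0.822 and 1.22. The edge of the rule was finer than the depth. Just inside it, chr13:91825001-91830000, chr6:47775001-47780000 and chr5:12305001-12310000 had 1.137 RPKM in knockout and 1.356, 1.245 and 1.344 RPKM in control. Just outside it, chr10:109910001-109915000, chr13:107795001-107800000 and chr4:16665001-16670000 had 1.1368 RPKM in knockout and 1.29, 1.54 and 1.20 RPKM in control. All 6 had 167 knockout reads.

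The levels of both genotypes were also set against each other. Across members, knockout and control RPKM had a Pearson's r of -0.03 and a Spearman's rho of -0.02 (2141 windows that share both libraries, with the range cut by the rule, so nothing is read from them). The wider set of windows without a bin at 10 RPKM, of which 5.92% were rich in knockout and 1.67% in control, was also split by level. Of 58001 windows with 0.758 to 1.137 RPKM in control, 22.5% were rich in knockout. The share was 27.1% of 5922 windows with 1.137 to 1.3 RPKM in control, 24.4% of 1983 windows with 1.3 to 1.5 RPKM and 16.4% of 329 windows above that. All 4 shares were above the 5.92% over all windows, and the share was lowest among the control windows with the most H3K27ac, a difference that was not tested. The limit on single bins left out 114 windows rich in both genotypes, with a median of 1.39 RPKM in control. Its part in the lower share was not tested either. In the other direction the share rich in control was 5.49% of 48710 windows with 0.758 to 1.137 RPKM in knockout and 7.10%, 7.08%, 8.11% and 6.90% in windows from 1.137, 1.3, 1.5 and 2 RPKM on. These shares were all above the 1.67% over all windows.

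Members were mostly solitary. They formed 1968 runs of adjacent windows, of which 1812 were 1 window long, 141 were 10 kb, 13 were 15 kb and 2 were 20 kb. Both 20 kb runs were close in level between genotypes. The run at chr6:8430001-8450000 had 1.29, 1.54, 1.17 and 1.72 RPKM in knockout and 1.17, 1.45, 1.54 and 1.20 RPKM in control, window by window. The run at chr3:156310001-156330000 had 1.64, 1.39, 1.33 and 1.27 RPKM in knockout, against 1.19, 1.20, 1.30 and 1.38 RPKM in control. In that run the knockout was highest at the left end and the control at the right end. The runs at chr14:21875001-21890000 and chr7:72495001-72510000 averaged 1.58 and 1.44 RPKM in knockout, against 1.36 and 1.36 RPKM in control.

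The stretches of rich windows that held a member differed in length between genotypes. At the same threshold, 5.92% of autosomal windows without a bin at 10 RPKM were rich in knockout and 1.67% in control. The part of these unequal shares in the lengths was not tested. Counting any adjacent window at 1.137 RPKM or more, the median stretch around a member was 10 kb long in knockout and 5 kb in control. Of the members, 914 (42.7%) were a single rich window in knockout and 1535 (71.7%) in control. Stretches of 20 kb or more held 376 members (17.6%) in knockout and 45 members (2.10%) in control, and the longest were 75 kb in knockout and 35 kb in control. The other rich windows also lay in longer stretches in knockout. Of windows rich in knockout only, 28.1% were in knockout stretches of 20 kb or more and 32.8% were single, and of windows rich in control only, 2.51% were in control stretches of that length and 67.7% were single. Fewer members than windows rich in knockout only were thus in long knockout stretches, a difference that was not tested. Of the 4282 windows next to a member, 37.8% were rich in knockout, 15.7% were rich in control and 8.31% in both, here with or without a bin at 10 RPKM. All 3 shares were above those over all windows, the 5.92% and 1.67% given above and the 0.433% of autosomal windows that were members.

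Members were scattered widely and gathered in places. The gap between neighbouring runs had a median of 535 kb and quartiles of 160 and 1490 kb. Another member lay within 100 kb of 892 members (41.7%), whereas 252 members were 1 Mb or more from the next. Of 2482 blocks of 1 Mb, 1109 (44.7%) held a member and 52 held 5 or more. Full blocks with members had a median of 0.436 RPKM in knockout and 0.462 RPKM in control, and those without had 0.288 RPKM in knockout and 0.327 RPKM in control. The densest block was chr6:8000001-9000000 with 11 members, which include the 20 kb run and the member with the lowest ratio. Its members had 1.14 to 1.72 RPKM in knockout and 1.14 to 1.87 RPKM in control, and 6 of the 11 were higher in knockout. It also held 5 windows rich in knockout only and 5 rich in control only. Blocks chr15:90000001-91000000 and chr8:9000001-10000000 had 9 members each, beside 19 and 18 windows rich in knockout only and 4 and 1 rich in control only.

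Around members the mean level of the mark decayed to a raised plateau at nearly the same pace in both genotypes. In the first 5 kb beyond the window the mean was 1.02 RPKM in knockout and 0.889 RPKM in control. At 10 to 25 kb it was 0.674 RPKM in knockout and 0.623 RPKM in control, and at 50 to 100 kb 0.522 RPKM in knockout and 0.510 RPKM in control. By medians over members of each 1 kb piece the knockout fell further. Its median was 1.43 RPKM at the window centre, and 0.374 RPKM and 0.34 RPKM at 100 kb to the left and right of it. The control median was 1.27 RPKM at the centre, and 0.457 RPKM and 0.425 RPKM at those distances. Over the 50 kb on either side the mean was 0.676 RPKM in knockout and 0.627 RPKM in control, which is 1.75 times the autosomal mean in knockout and 1.67 times that in control. The median member held 2.14 times its flank in knockout and 1.99 times its flank in control. These flanks hold other members in places. Around the 1249 members with no other member within 100 kb, the means were 0.624 RPKM in knockout and 0.585 RPKM in control.

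The flanks of members and of windows rich in 1 genotype differed in level. These classes were chosen on the levels of the windows, and flank and window share the same libraries. A difference in the flanks can therefore follow from that choice, and no test could be made. Around windows rich in knockout only, the flanks averaged 0.827 RPKM in knockout and 0.526 RPKM in control. Around windows rich in control only they averaged 0.404 RPKM in knockout and 0.625 RPKM in control. The control flanks of members and of windows rich in control only were thus at the same level, 0.627 and 0.625 RPKM, and the knockout flanks differed, at 0.676 and 0.404 RPKM. The median log2 ratio of the flanks was 0.07 for members, 0.58 for windows rich in knockout only and -0.62 for windows rich in control only. Flanks were higher in knockout for 55.3% of members, 89.9% of windows rich in knockout only and 10.9% of windows rich in control only. Within the members, the ratio of the window and that of its flank had a Pearson's r of 0.365 and a Spearman's rho of 0.355 over 2141 windows. In windows rich in knockout only r was 0.527 and rho 0.542, and in windows rich in control only 0.540 and 0.539. The rule keeps large ratios out of members, so nothing is read from their lower values.

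**Figure D3:**
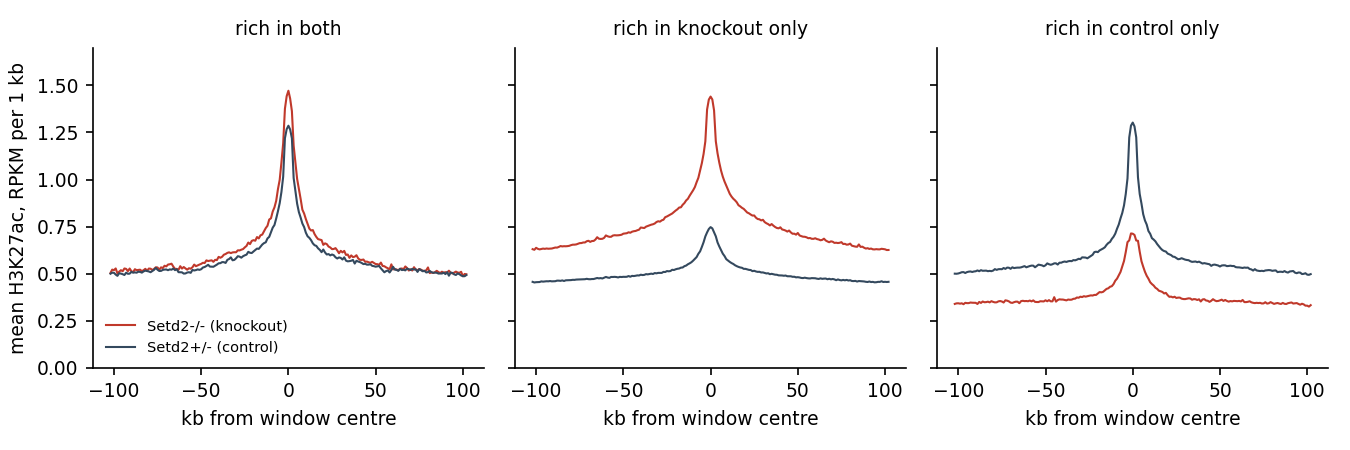
Mean H3K27ac in RPKM per 1 kb, against distance in kb from the window centre, for 2141 members (left), 26990 windows rich in knockout only (middle) and 6093 windows rich in control only (right), with knockout in red and control in blue. The tracks run close together around members, whereas in the other panels the genotype in which the window is rich is higher across the whole 100 kb on either side.

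Apart from the limit on single bins, which cuts the richest bins, the place of reads inside a window was not used to choose members. In members the knockout track was the more uneven one, and it was so in windows rich in control only as well. In windows rich in knockout only this depended on the measure. A median of 11 of the 50 bins in a member were empty in knockout and 5 in control. In windows rich in knockout only the median was 10 in knockout and 12 in control, and in windows rich in control only 22 in knockout and 5 in control. The 10 richest bins held a median of 51.8% of a member's reads in knockout and 43.2% in control, and the variance of reads per bin was 3.98 times their mean in knockout and 2.15 times in control. It was 3.81 times in knockout and 1.96 times in control in windows rich in knockout only, and 3.57 times in knockout and 2.202 times in control in windows rich in control only. Of bins with reads, 53.3% had an even number in knockout and 48.1% in control. The median richest 500 bp piece of a member was at 2.59 RPKM in knockout and 2.02 RPKM in control, and it was 2 times the window mean or more in 658 members (30.7%) in knockout and in 185 (8.64%) in control. That share was 28.3% in knockout and 29.0% in control for windows rich in knockout only. For windows rich in control only it was 68.8% in knockout and 9.72% in control. Within each track it was thus highest, among these classes, in windows not rich in that track, and the part of depth in this was not tested. The part of reads counted in pairs in this unevenness was not tested.

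Within the median member, bins with more H3K27ac in knockout were not those with more in control. The median Pearson's r between knockout and control over the 50 bins of a member was -0.031, and it was above 0 in 910 members (42.5%). With bins merged to 500 bp the median was -0.082, above 0 in 874 members (40.8%), and with bins of 1 kb it was -0.064. Windows rich in control only gave -0.087 at 500 bp. Windows rich in knockout only gave 0.11, and 14607 windows with 0.758 RPKM or more in both tracks that were rich in neither gave 0.069. Members had a median of 199 reads in knockout and 188 in control. Windows rich in knockout only had 198 in knockout and 115 in control, windows rich in control only 104 in knockout and 189 in control, and windows rich in neither 137 in knockout and 138 in control. Depth therefore differed among these classes, and its part in the correlations was not tested.

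The richest 500 bp piece of each member was also located in one track and read in the other. At the richest piece of the knockout track, which held 2.65 RPKM against 1.28 RPKM in the other 9 pieces, the control track had 1.22 RPKM, against 1.26 RPKM in its other 9 pieces. At the richest piece of the control track, which held 2.07 RPKM against 1.16 RPKM in the other 9, the knockout track had 1.26 RPKM, against 1.43 RPKM in its other 9 pieces. The knockout was thus lower where the control peaked, at 0.882 times its level elsewhere in the window. It was lower there in 1359 of 2141 members (63.5%), and the mean difference was below 0 on 18 of 19 autosomes. At the poorest 500 bp of the knockout track, at 0.462 RPKM, control had 1.32 RPKM, against 1.24 RPKM elsewhere in the window. In windows rich in knockout only, the knockout was instead higher at the richest piece of control, with 1.48 RPKM there and 1.40 RPKM elsewhere. In windows rich in control only it was lower, with 0.603 RPKM there and 0.707 RPKM elsewhere, and it was lower there in 64.5% of them and on 19 of 19 autosomes. In windows rich in neither it had 0.957 RPKM there and 0.936 RPKM elsewhere, yet was lower there in 53.8% of them, so a share above 50% need not go with a lower mean. At the poorest 500 bp of the control track, at 0.578 RPKM, knockout had 1.40 RPKM, against 1.42 RPKM elsewhere in the window.

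**Figure D4:**
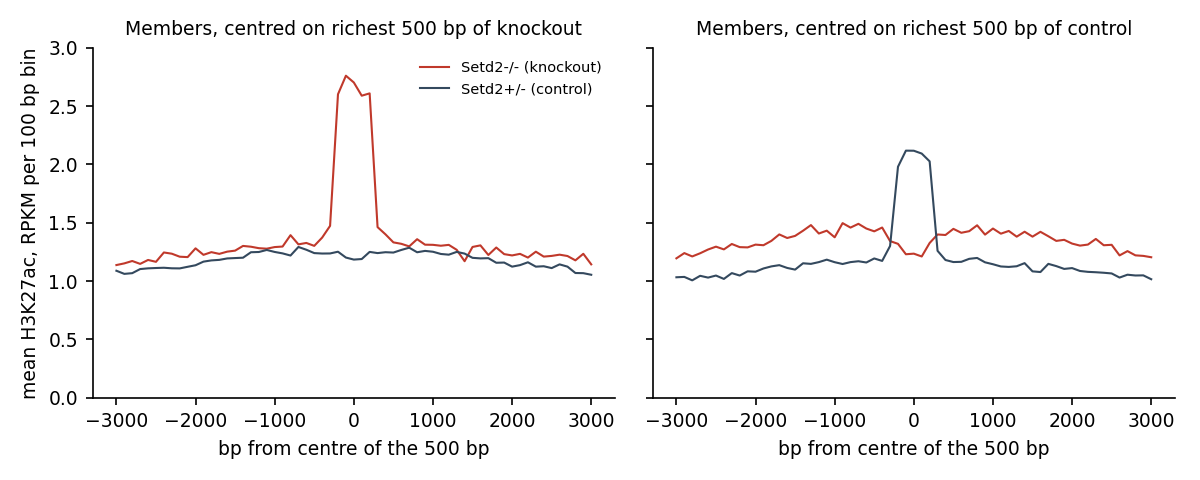
Mean H3K27ac of the 2141 members in RPKM per 100 bp bin, against distance in bp from the centre of the richest 500 bp piece of the knockout track (left) or of the control track (right), with knockout in red and control in blue. The peak of the track used for centring is chosen and so is no result; the other track has no peak there, and on the right the knockout dips to 1.26 RPKM over the 500 bp.

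Because members were chosen on the same reads that give their level, the levels were also read on bins that took no part in the choice. Windows were chosen on alternate 1 kb blocks of the chromosome and measured on the blocks between them. Chosen on odd blocks, 3123 windows had 1.28 RPKM in knockout and 1.05 RPKM in control on the even blocks, or 3.31 times the autosomal mean in knockout and 2.82 times in control. Chosen on even blocks, 3103 windows had 1.29 RPKM in knockout and 1.05 RPKM in control on the odd blocks. The knockout passed the threshold again in 62.7% and 63.5% of them, the control in 35.6% and 34.7%, and both in 21.2% and 21.3%. Of all whole windows without a bin at 10 RPKM, 5.92% reached it in knockout and 1.67% in control. These whole windows rest on more bins each, so the sizes of these gaps are not read as a result. On the alternate blocks 207 of 3123 and 197 of 3103 windows were at least 2-fold higher in knockout, and 70 and 46 at least 2-fold lower. Among whole autosomal windows at or above the autosomal mean the shares were 12.1% higher and 13.4% lower. Those shares rest on more bins per window, so nothing is read from these counts. The windows chosen on alternate blocks thus stayed far above the autosomal mean in both genotypes, at levels lower than those they were chosen on. The measured blocks lie next to the chosen ones in the same libraries, so they are no independent check. For comparison, the first 1 kb beyond a member averaged 1.19 RPKM in knockout and 1.01 RPKM in control.

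Members lay on every autosome at unequal density. There were 4.33 members per 1000 autosomal windows, with the highest density on chromosome 1 at 5.81, followed by chromosome 6 at 5.58 and chromosome 10 at 5.50. The lowest were on chromosome 7 at 2.36, chromosome 17 at 2.41 and chromosome 15 at 2.85. Chromosomes 7 and 17 also had the fewest windows rich in control, 8.06 and 9.18 per 1000, and chromosome 15 did not, with 18.1 per 1000. On chromosome 15, 15.7% of the windows rich in control were members, the lowest share of any autosome, against 22.6% to 32.2% on the others. The median log2 ratio of members was above 0 on all 19 autosomes, between 0.07 on chromosome 18 and 0.20 on chromosome 9.

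Density of protein-coding genes, taken per chromosome from a RefSeq table of GRCm38 without using positions, ran from 5.60 to 13.3 per Mb. Across 19 autosomes the density of members had a Pearson's r of -0.39 with it and a Spearman's rho of -0.24, and r was -0.25 without chromosomes 11 and 7, the farthest from the median. The density of windows rich in knockout had r of 0.31 and rho of 0.34, and r was 0.38 without chromosomes 11 and 7. That of windows rich in control had r of -0.64 and rho of -0.45, and r was -0.52 without them. These are descriptions over chromosomes that share both libraries. With each chromosome divided into 3 parts of equal length, the first, middle and last part held 744, 742 and 655 members, or 4.51, 4.50 and 3.97 per 1000 windows. Over all windows, the last part had the most H3K27ac in knockout, at 0.412 RPKM, and the least in control, at 0.354 RPKM.

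**Figure D5:**
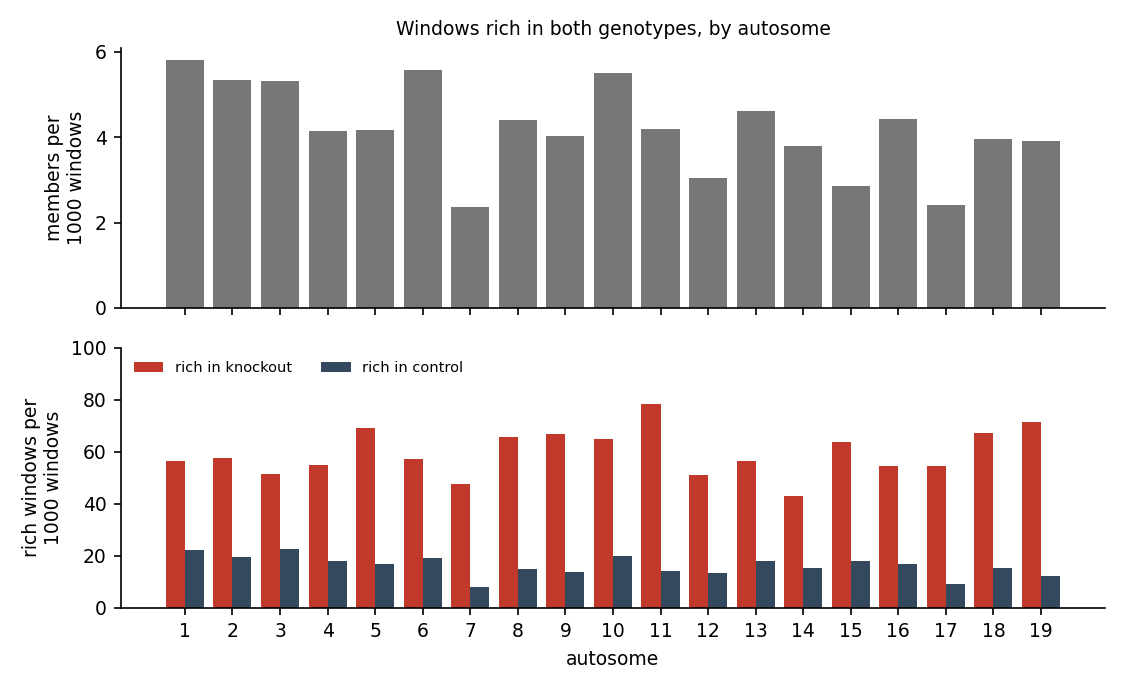
Top, members per 1000 windows on each autosome. Bottom, windows per 1000 that reached 1.137 RPKM in knockout (red) and in control (blue); members range from 2.36 on chromosome 7 to 5.81 on chromosome 1, and on every autosome more windows were rich in knockout than in control.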

How the data were processed

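STAR ChIP-seq used an H3K27ac antibody from Active Motif. The labels point the 2 replicates of each genotype to the same file. The deposited values are RPKM in bins of 100 bp, with bins without reads left out. The unit follows from their sum. According to the submitters' processing notes, Bowtie2 2.2.2 and the mm9 build were used. How reads were extended, filtered for duplicates or repeats and set against input is not given in the sources used here. Each of these steps could change levels at repeats and pile-ups. All values (100%) were whole multiples of the value of 1 read within 0.005 RPKM, so reads could be recovered: 1 read was worth 0.341 RPKM in knockout and 0.326 RPKM in control.

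Empty bins counted as 0, and windows were means of 50 bins. Members, comparison classes and lists were chosen with earlier results of these data known. Named windows were the 6 highest in their poorer track, the 3 highest and 3 lowest log2 ratios and the 3 nearest to 0 among the 100 richest, all at least 1 Mb apart within their list, the 5 longest runs, the 3 blocks with most members and the windows at the edge of the rule. The log2 ratio used a pseudocount of 0.1 RPKM, which understates changes of low windows. Intervals of ratios are exact binomial (Clopper-Pearson) at 95%. The code was tested on simulated data. It ran in Python 3.11.15 with SciPy 1.17.1, pandas 2.3.3, matplotlib 3.10.9 and NumPy 2.4.6. The other 54 samples were not analysed here.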

Additional observations from a re-analysis of the deposited data

How the results depend on the processing

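No paired analysis was possible because the tracks do not keep replicates apart, and for the same reason no replicate was left out. Alternatives that need an annotation of mm9 were not run. The readings at the richest and poorest 500 bp and the class of windows rich in neither track were added after seeing the data. The number of members depended mostly on the threshold and window size. At 2 times the base of the rule (0.758 RPKM) there were 32476 members in 20456 runs with 19.9% of the signal in knockout and 17.0% in control, and at 4 times 9 members in 9 runs with 0.00882% in knockout and 0.00827% in control. Windows of 2 kb gave 11084 members in 9388 runs (3.47% in knockout and 3.10% in control), windows of 10 kb 406 in 390 runs (0.578% in knockout and 0.534% in control), and a limit of 5 RPKM on single bins 449 in 441 runs (0.309% in knockout and 0.302% in control). The counts were within 1.5 times of 2141 and 1968 in the 4 other settings, with shares of signal of 1.61% in knockout and 1.47% in control at 3 times each pool's own mean, 1.57% in knockout and 1.43% in control with windows shifted by 2.5 kb, 2.205% in knockout and 1.65% in control without a limit on single bins, and 1.17% in knockout and 1.07% in control with reads limited to 10 a bin. The fold between the densest and the sparsest autosome, 2.46, was 1.89 at 2 times the base, 2.08 in 2 kb and 3.87 in 10 kb windows, and at 4 times some autosomes had no member.

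The 2 members at least 2-fold higher in knockout became 0 with a pseudocount of 0.5, with the limit of 10 reads and with shifted windows, 40 without a limit on single bins, and 50 with both tracks scaled to 1 autosomal median. With windows chosen on alternate 1 kb blocks and measured on the others, which changes the windows (3123 and 3103) and the bins behind each value as well, 207 and 197 were 2-fold higher. The 0 members at least 2-fold lower became 2 without the limit, and 70 and 46 of those other windows were 2-fold lower. The median log2 ratio, 0.13, was 0.14 with a pseudocount of 0.01, 0.10 with 0.5, 0.14 without the limit, 0.10 with the limit of 10 reads, 0.28 and 0.27 in the windows chosen on alternate blocks, 0.084 with both tracks scaled to 1 autosomal mean and 0.46 with 1 median. The median scaling raises the knockout track by 0.35 (log2) and put 99.2% of members higher in knockout, against 73.2%. The median r inside members, -0.031 at 100 bp, was -0.082 at 500 bp, -0.029 with the limit of 10 reads and -0.020 on ranks. The level within 50 kb of members, 0.676 RPKM in knockout and 0.627 RPKM in control, was 0.659 RPKM in knockout and 0.630 RPKM in control by medians, 0.627 RPKM in knockout and 0.590 RPKM in control around the 1405 members with no other within 50 kb, and 0.645 RPKM in knockout and 0.622 RPKM in control with the limit of 10 reads. What caused these shifts was not tested. Of 75 values for the 15 named windows, 59 stayed within the counting interval. The scaling to 1 median moved all 15 beyond it. The limit of 10 reads moved the member with the highest ratio beyond it, from a log2 ratio of 1.09 to 0.81. That limit also moved chr1:3625001-3630000 from a log2 ratio of 0.081 to -0.15, a change of sign that stayed within its counting interval. Under the scaling to 1 median the signs of chr1:90155001-90160000 (-0.33 to 0.010) and chr10:123220001-123225000 (-0.044 to 0.29) also changed. The windows nearest to 0 changed sign with both tracks scaled to 1 autosomal mean.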

Other observations

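Chromosome X, which the rule leaves out, had 178 windows at the same levels and limit, or 5.34 per 1000 windows against 4.33 per 1000 on the autosomes. They had a median of 1.34 RPKM in knockout and 1.24 RPKM in control, and 118 of 178 were higher in knockout, with a median log2 ratio of 0.07. Of the windows of X rich in knockout 23.4% were also rich in control, against 7.35% on the autosomes. Of those rich in control 13.2% were also rich in knockout, against 26.0% on the autosomes. On X, 22.8 windows per 1000 were rich in knockout and 40.3 per 1000 in control.

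The limit on single bins kept out 114 autosomal windows that were rich in both genotypes. The bin at 10 RPKM or more was in both tracks in 64 of them, in knockout only in 39 and in control only in 11. Their medians were 1.93 RPKM in knockout and 1.39 RPKM in control, 38 were at least 2-fold higher in knockout and 2 at least 2-fold lower, and single bins reached 2556 RPKM in knockout and 484 RPKM in control. The window chr1:90170001-90175000, near the run of the richest member, is 1 of them.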
